A study of Macaca nemestrina with 15 samples.

Results

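RNA of 10 enzymes that phosphorylate, deaminate or break down deoxynucleosides and their analogues was measured in the peripheral blood mononuclear cells (PBMCs) of pig-tailed macaques treated with islatravir (ISL). The enzymes were chosen by function, as the rows of the count table with the gene names *DCK*, *DGUOK*, *TK2*, *ADK*, *CMPK1*, *ADA*, *PNP*, *HPRT1*, *NT5C2* and *SAMHD1*. All 10 were among the 28865 features in the table, and all 10 were among the 12880 features that passed a filter on low counts. Oral ISL at 30 mg/kg was given weekly for 12 weeks to 5 female animals. Each was sampled before the first dose (pre-treatment), at the end of dosing (week 12) and once more after dosing had stopped (week 18, labelled as 6 weeks after it). Each of the 3 time points has 5 libraries, 1 from each animal, so the 15 libraries form 5 series within animals. No untreated animals were sequenced, so a change with treatment cannot be told apart from a change with time.

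ISL is an adenosine analogue that becomes active only after cells add phosphate groups to it. Deoxycytidine kinase, encoded by *DCK*, is the cytosolic enzyme known for the first of these steps. Adenosine deaminase, encoded by *ADA*, inactivates many adenosine analogues, while ISL carries a fluorine that makes it a poor substrate. Other enzymes of the group work on natural nucleosides and nucleotides: kinases in the mitochondria, phosphorylases and transferases of purine salvage, nucleotidases that remove phosphate, and SAMHD1, which cleaves deoxynucleoside triphosphates and is known as a restriction factor for retroviruses in resting immune cells. RNA levels say nothing directly of the activity of these enzymes.

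The libraries held 5610597 to 10379572 gene counts (median 8871860), and the shallowest were those of Z15303 at week 12 and week 18. Levels are given as CPM, the counts of a gene relative to the total of its library, after scaling with edgeR's TMM factors, which ranged from 0.939 to 1.11. Dates in the library names placed the second sample of an animal 56 or 57 days after the first and the third 84 days after it, which does not match the labelled weeks. The last samples of an animal lay 27 or 28 days apart by these dates, so the length of the interval without drug is uncertain. The methods of the study give 6 weeks for this interval. A figure legend gives a shorter time, which is close to the 27 or 28 days between the dates. By the same dates, the length of dosing before the second sample is uncertain as well. The labelled names are used here. Z15303, Z15339 and Z15408 shared their dates at all 3 time points, while Z13076 and Z15228 each had dates of their own. A feature was called at an adjusted p under 0.05 (Benjamini-Hochberg over all 12880 features), in edgeR's quasi-likelihood test with time point alone and also with the animal as a block, which compares each animal with itself.

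None of the 10 enzymes was called in any comparison. At week 12 compared with pre-treatment, 0 of 10 passed in the test without the block, where 0% of all features did, and 0 of 10 with the block, where 0.00776% did. The same held at week 18 (0 of 10 in both tests, against 0% and 0.00776% of all features) and between week 18 and week 12 (0 of 10, against 0% in both). DESeq2 and limma-voom called 0 of 10 as well, and over the 20 fits tried in each comparison the smallest adjusted p of any enzyme was 0.14 at week 12, 0.0735 at week 18 and 1 between them. At an unadjusted p under 0.05, *DCK* was the only enzyme at week 12, with or without the block (1 of 10, against 1.61% of all features without it and 4.69% with it). No enzyme reached it at week 18 (1.69% and 5.85% of all features) or between week 18 and week 12 (0.505% and 2.17%).

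*DCK* was lower at week 12 in 5 of 5 animals. Its level was 20.7 CPM before treatment and 14.9 at week 12 in Z13076, 19.9 and 16.2 in Z15228, 25.1 and 16.6 in Z15303, 23.2 and 20.8 in Z15339, and 28.8 and 21.9 in Z15408. The ranges of the time points overlapped, because the highest week 12 animals lay above the lowest animals before treatment, while within each animal the order was the same. Over the 5 animals the mean went from 23.5 ± 3.58 to 18.1 ± 3.05 CPM (SD, n = 5). The log2 fold change was −0.38 (standard error, SE, 0.159), a difference of −23%, and edgeR gave an unadjusted p of 0.0305 and an adjusted p of 1. The value with the block was −0.38 (SE 0.153, edgeR adjusted p = 0.862), and the unadjusted 95% interval ran from −38.5% to −4%. Of all features, 3.45% were lower at week 12 in 5 of 5 animals, and *DCK* was the only one of the 10 enzymes that moved the same way in all of them.

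The within-animal log2 changes of *DCK* at week 12 were −0.59 in Z15303, −0.46 in Z13076, −0.39 in Z15408, −0.30 in Z15228 and −0.16 in Z15339. Leaving out each animal in turn, the log2 fold change without the block lay between −0.43 and −0.31, the weakest without Z15303. The unadjusted p was not under 0.05 without Z15228, Z15303 or Z15408 in the test without the block, nor without Z15303 in the test with it. *DCK* was counted by 90 to 252 reads per library, and at the lowest count the counting error alone is 10.5% of the value. Over all fits tried, its adjusted p at week 12 lay between 0.271 and 1. PBMCs are a mixture, and fewer cells that express a gene cannot be told apart from less of its RNA per cell.

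**Figure D1:**
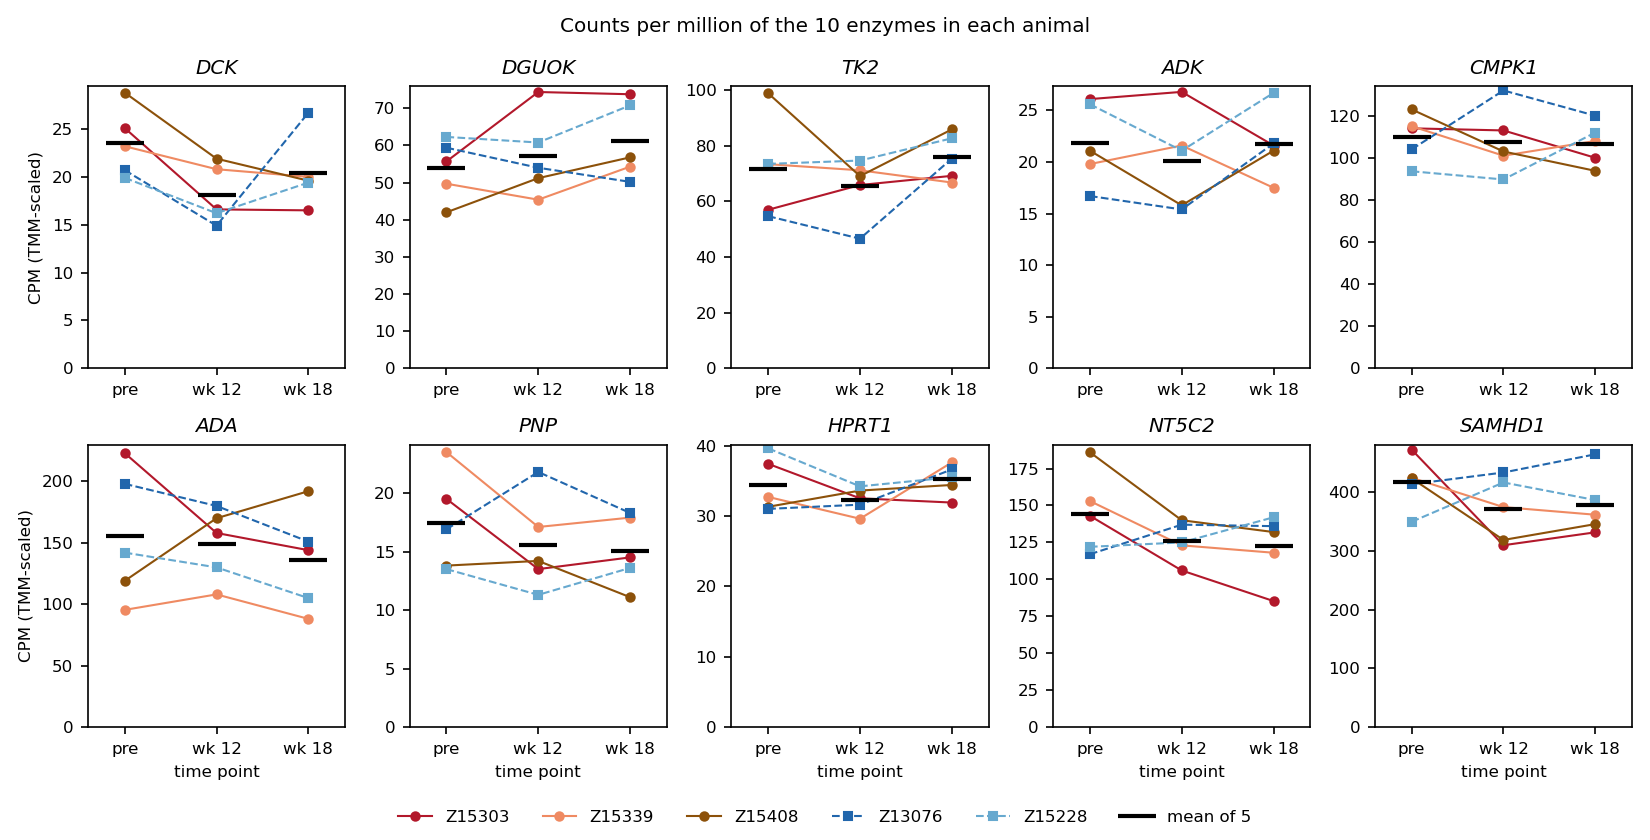
Level of each of the 10 enzymes in CPM (linear axis from 0) before treatment (pre), at week 12 and at week 18, with 1 line per animal. Solid lines with circles are the 3 animals with shared dates, dashed lines with squares the other 2, and black bars the mean of 5; the 5 lines of *DCK* all run downward to week 12, where its mean is 18.1 CPM against 23.5 before treatment.

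At week 18 the *DCK* values of the animals no longer lay on one side of pre-treatment. They were 26.7 CPM in Z13076, 20.0 in Z15339, 19.6 in Z15408, 19.4 in Z15228 and 16.5 in Z15303, with a mean of 20.5 ± 3.78 (SD, n = 5). The level was above its pre-treatment value in Z13076 and below it in the other 4 animals. The log2 fold change against pre-treatment was −0.20 (SE 0.159, edgeR adjusted p = 1), and −0.19 with the block (SE 0.152, edgeR adjusted p = 0.9). It was −0.36 without Z13076, and −0.10 without either Z15303 or Z15408, so single animals moved it by more than 1.5 times. Against week 12 it was 0.18 (SE 0.16, edgeR adjusted p = 1), with a change of 0.83 on the log2 scale in Z13076 and 0.26 in Z15228 and between −0.16 and −0.01 in the other 3 animals.

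The mitochondrial deoxynucleoside kinases were not called in either direction. *DGUOK*, whose enzyme phosphorylates purine deoxynucleosides in mitochondria, had 53.8 ± 8.12, 57.1 ± 11.1 and 61.2 ± 10.5 CPM in the order of the time points (SD, n = 5). It was the only one of the 10 with a mean log2 fold change above 0 at week 12 (0.084, SE 0.154, edgeR adjusted p = 1), and without Z15303 that value was −0.0048. At week 18 it was higher in 4 of 5 animals (log2 fold change 0.18, SE 0.154, edgeR adjusted p = 1). Z15303 went from 55.7 CPM to 74.4 and 73.8, and Z15408 from 42.0 to 51.2 and 56.8, while Z13076 went from 59.4 to 54.0 and 50.2.

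*TK2*, which encodes the mitochondrial kinase of thymidine and deoxycytidine, had 71.5 ± 17.6, 65.5 ± 11.0 and 76.0 ± 8.29 CPM at the 3 time points (SD, n = 5). Its animals differed most before treatment, when Z15408 had 98.9 CPM and the other 4 had 54.7 to 73.5. The log2 fold change was −0.13 at week 12 and 0.088 at week 18 (SEs 0.163 and 0.162, edgeR adjusted p = 1 for both), and at week 12 it was 0.0011 without Z15408. From week 12 to week 18 it was higher in 4 of 5 animals (log2 fold change 0.21, SE 0.163, edgeR adjusted p = 1).

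Of the other kinases, *ADK* encodes adenosine kinase, which returns adenosine to the nucleotide pool, and *CMPK1* the cytosolic kinase that adds a second phosphate to pyrimidine nucleoside monophosphates. *ADK* had 21.9 ± 3.97, 20.1 ± 4.68 and 21.8 ± 3.28 CPM (SD, n = 5), with log2 fold changes of −0.12 at week 12 and −0.0081 at week 18 (SE 0.176 and edgeR adjusted p = 1 for both). *CMPK1* was among the steadiest of the group, with 110 ± 11.3, 108 ± 15.9 and 107 ± 10.2 CPM and log2 fold changes of −0.030 and −0.043 (SE 0.117 and edgeR adjusted p = 1 for both). Its unadjusted 95% interval at week 12 with the animal as a block ran from −17.2% to 14.6%. Depending on the animal left out, its sign turned in every comparison.

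Of the enzymes that break nucleosides down or salvage their bases, *ADA* differed far more between animals than between time points. Before treatment it ranged from 95.4 CPM in Z15339 to 223 in Z15303, with 119 in Z15408, 142 in Z15228 and 198 in Z13076. At week 12 the values were 108, 158, 170, 130 and 180 CPM in Z15339, Z15303, Z15408, Z15228 and Z13076, and at week 18 they were 88.1, 144, 192, 105 and 151. Z15408 was higher at each later time point, with a log2 change of 0.69 from pre-treatment to week 18, and the other 4 were lower at week 18 than before treatment, by log2 changes of −0.63 to −0.11. The means were 155 ± 53.5, 149 ± 29.8 and 136 ± 40.9 CPM (SD, n = 5), and the log2 fold changes were −0.061 at week 12 and −0.19 at week 18 (SE 0.242 for both, edgeR adjusted p = 1). With the block the SE was 0.145 at week 12, and the unadjusted 95% interval of the change ran from −21.2% to 20.4%. Without Z15303 the week 12 value was 0.091 and without Z15408 it was −0.20.

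*PNP* encodes purine nucleoside phosphorylase, which splits inosine and guanosine, and *HPRT1* the transferase that salvages hypoxanthine and guanine. *PNP* had the lowest counts of the group (73 to 197 reads per library) and 17.4 ± 4.2, 15.6 ± 4.04 and 15.1 ± 3.04 CPM (SD, n = 5). Its log2 fold change was −0.16 at week 12 and −0.21 at week 18 (SE 0.208 for both, edgeR adjusted p = 1), and it was lower in 3 of 5 animals both times. The week 12 value was −0.063 without Z15303, −0.066 without Z15339 and −0.32 without Z13076. *HPRT1* varied least at the later time points, with a coefficient of variation of 5.61% at week 12 and 6.23% at week 18, against 11.3% before treatment. Its means were 34.4, 32.3 and 35.2 CPM, and its log2 fold changes −0.093 and 0.034 (SE 0.103 for both, edgeR adjusted p = 1).

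*NT5C2* encodes the cytosolic nucleotidase that takes phosphate from purine monophosphates. It had 117 CPM before treatment in Z13076, 122 in Z15228, 143 in Z15303, 153 in Z15339 and 186 in Z15408. At week 12 the same animals had 137, 125, 106, 123 and 140 CPM, and at week 18 they had 136, 142, 85.3, 118 and 132. The first 2 animals were higher after the start of treatment and the last 3 were lower, at both time points. The mean log2 fold change was −0.19 at week 12 and −0.23 at week 18 (SE 0.152 for both, edgeR adjusted p = 1), and −0.24 at week 18 with the block (SE 0.129, edgeR adjusted p = 0.86). Without Z15303 the values were −0.13 and −0.12, and without Z15408 they were −0.12 and −0.15. Without Z13076 they were −0.29 and −0.34.

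*SAMHD1* was read most deeply, with 1681 to 4266 counts per library, and its counting error was at most 2.44%. Before treatment it had 350 CPM in Z15228, 414 in Z13076, 424 in Z15408, 425 in Z15339 and 473 in Z15303. At week 12 these animals had 417, 434, 319, 375 and 310 CPM, and at week 18 they had 387, 465, 346, 362 and 332. As with *NT5C2*, Z13076 and Z15228 were higher at both later time points and the other 3 animals were lower. The log2 fold change was −0.17 at week 12 and −0.14 at week 18 (SE 0.13 for both, edgeR adjusted p = 1). These values leaned on Z15303, without which they were −0.053 and −0.042. They were −0.26 at week 12 without Z15228, and −0.11 without Z15408. At week 18 they were −0.23 without Z13076.

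*SAMHD1* is also known to respond to interferon in some cells, and the interferon list of 20 genes, 18 of them measured, differed most in the same animal. Its summed level before treatment was 3320 CPM in Z15303 and 707 to 1370 in the other 4 animals, and it was 865 to 1200 at week 12 and 704 to 1010 at week 18 over all 5. The mean log2 CPM of the list changed in Z15303 by −1.83 at week 12 and −1.69 at week 18, and in the other 4 by −0.20 to 0.46 at week 12 and −0.32 to 0.085 at week 18. None of the 18 genes was called in any comparison by edgeR or DESeq2, with or without the block, or by limma-voom. At week 12 the log2 change of *SAMHD1* was −0.61 in Z15303, −0.41 in Z15408, −0.18 in Z15339, 0.067 in Z13076 and 0.25 in Z15228. The mean log2 CPM of the list changed by −1.83, 0.458, 0.035, −0.201 and 0.231 in the same order of animals. The part of the interferon difference in the *SAMHD1* values was not tested.

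**Figure D2:**
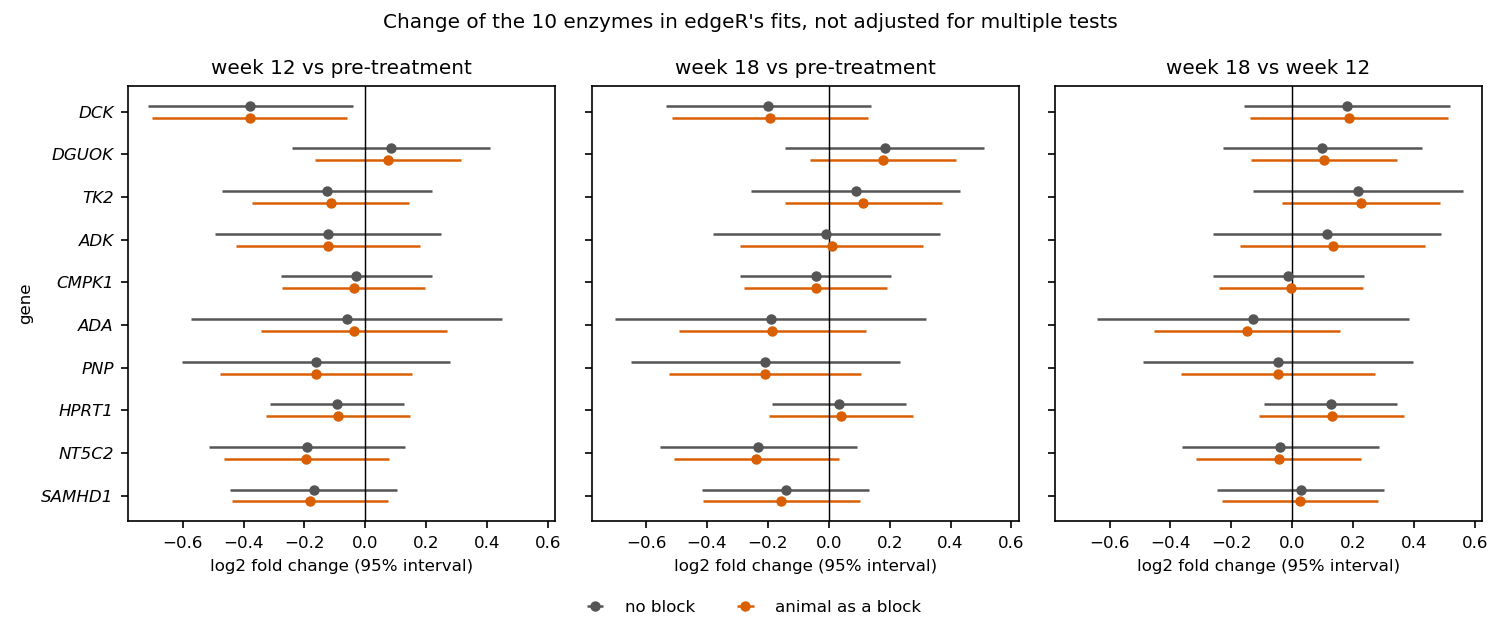
Log2 fold change of each enzyme in the 3 comparisons, with unadjusted 95% intervals, from edgeR's test with time point alone (grey) and with the animal as a block (orange). The interval of *DCK* at week 12 lies below 0 in both, and every other interval spans 0.

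Counted over the group, 9 of 10 log2 fold changes lay below 0 at week 12 (49% of all features did), 7 of 10 at week 18 (49.8%), and 4 of 10 between week 18 and week 12 (51.1%). The median of the 10 was −0.12 at week 12 and −0.092 at week 18, where the median of all features was 0.0037 and 0.00071. Between week 18 and week 12 the medians were 0.063 and −0.0029. The median absolute log2 fold change was 0.124 for the 10 and 0.117 for all features at week 12, and 0.163 and 0.123 at week 18. In no comparison did the CPM ranges of the time points lie apart for any of the 10 (0.28%, 0.334% and 0.101% of all features in the order above). Both later time points were set against the same pre-treatment libraries, so their counts are not separate evidence.

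The dates of the libraries allow a comparison within the animals that shared them. At week 12, 2 of the 10 enzymes were lower in all 3 animals with shared dates and higher in both others, namely *NT5C2* and *SAMHD1*, and 16.5% of all features showed such an opposite split in one direction or the other. At week 18, 4 of 10 did, *CMPK1*, *PNP*, *NT5C2* and *SAMHD1*, where 16.3% of all features did. For *NT5C2* the mean log2 change at week 18 was −0.54 in the animals with shared dates and 0.22 in the other 2. A term for time by date group in the edgeR fit with the animal as a block, added after the values had been seen, put that difference at −0.76 (SE 0.175, adjusted p = 0.0903). None of the 10 was called by it, where 0.0155% of features were at week 12 and 0% at week 18 and between the later time points. At an unadjusted p under 0.05, 2 of the 10 (*NT5C2*, *SAMHD1*) stood against 18.5% of all features at week 12, and 4 of 10 (*DCK*, *CMPK1*, *NT5C2*, *SAMHD1*) against 16.5% at week 18.

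*DCK* at week 12 did not take part in this split. Its mean log2 change was −0.38 in the 3 animals with shared dates and −0.38 in the other 2, with a difference of −0.0030 (SE 0.263, edgeR adjusted p = 0.997). At week 18 the same means were −0.45 and 0.17, and the difference was −0.64 (SE 0.256, unadjusted p = 0.025, edgeR adjusted p = 0.232). From week 12 to week 18 *DCK* was the 1 enzyme of 10 that split the opposite way by date (5.56% of all features did) and the 1 with an unadjusted p under 0.05 for the difference (4.79%). In a fit of the 3 animals with shared dates alone, with the animal as a block, no enzyme was called. The log2 fold changes there were −0.37 for *DCK* (edgeR adjusted p = 0.271), −0.375 for *NT5C2* (0.14) and −0.39 for *SAMHD1* (0.147) at week 12. At week 18 they were −0.44 for *DCK* (edgeR adjusted p = 0.183), −0.52 for *NT5C2* (0.0735) and −0.33 for *SAMHD1* (0.193). Each of the other 2 animals has dates of its own, so no value within their dates could be had.

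**Figure D3:**
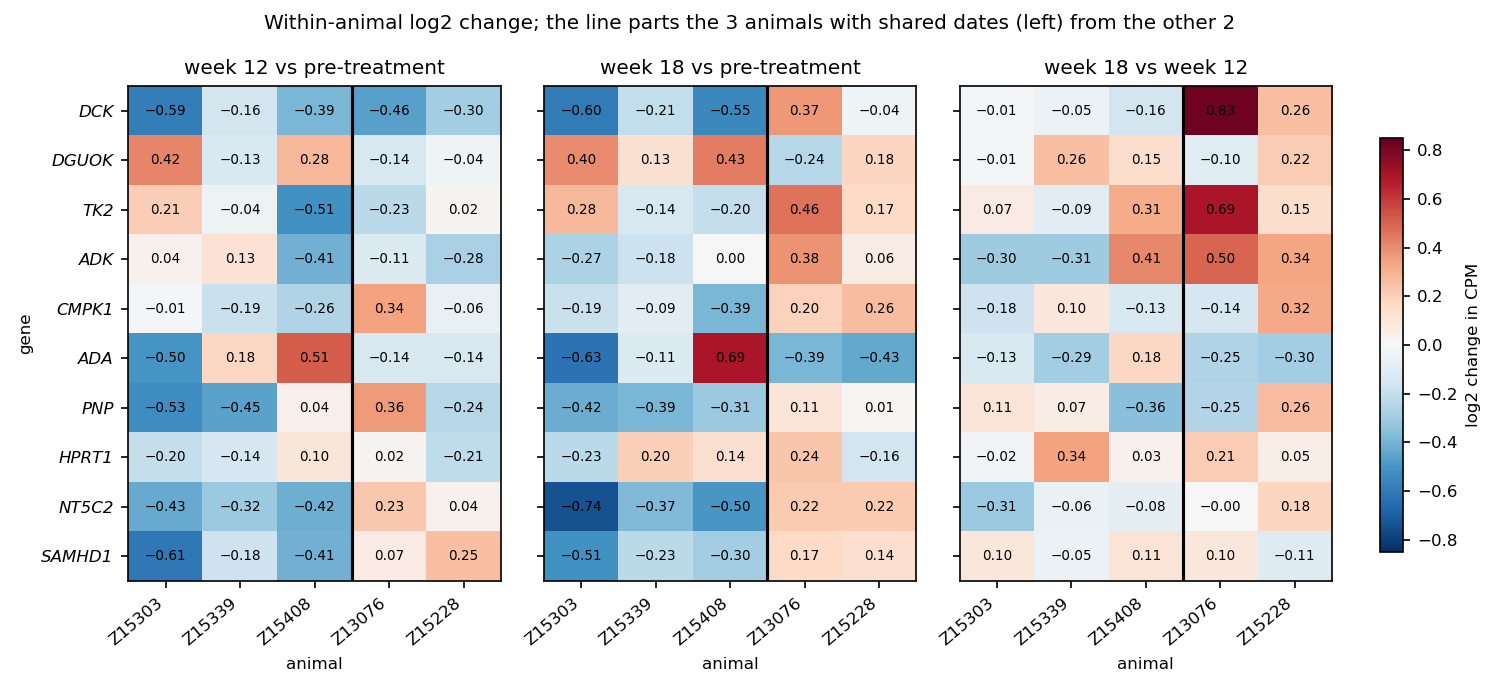
Log2 change in CPM within each animal (colour scale, red above 0 and blue below 0) for the 10 enzymes in the 3 comparisons, with the 3 animals with shared dates left of the black line. The row of *DCK* is below 0 in all 5 animals at week 12, and the rows of *NT5C2* and *SAMHD1* change sign at the line at week 12 and week 18.

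The animals also differed in how many of the 10 were lower. At week 18, 8 of 10 were below their pre-treatment level in Z15303 and in Z15339 and 6 of 10 in Z15408, while 2 of 10 were in Z13076 and 3 of 10 in Z15228. At week 12 the counts ran from 5 of 10 in Z13076 to 8 of 10 in Z15339. The share of all features lower in each animal is not given here, so these counts are not a result about the enzymes alone. The part of the variance of log2 CPM that lay between animals was 69.3% for *ADA*, 67.4% for *PNP*, 63.4% for *DGUOK*, 56.7% for *ADK* and 54.4% for *TK2*, against a median of 51.9% over all features. It was 37.1% for *NT5C2*, 32.0% for *CMPK1*, 27.6% for *SAMHD1*, 20.7% for *HPRT1* and 19.6% for *DCK*. *DCK* had the largest part between time points, 35.5%, where the median of all features was 6.23%, and *HPRT1* followed with 20.2%.

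Across the 15 libraries, which come from 5 animals and share depth and cell mixture, some of the enzymes moved together. The Pearson correlation of log2 CPM was 0.661 for *CMPK1* and *PNP* and 0.652 for *DCK* and *NT5C2*. *DGUOK* ran opposite to *NT5C2* (−0.703) and to *DCK* (−0.658). Among 10771 features with a symbol, the 3 most like *DCK* were *PPM1L* (0.895), *KLF7* (0.893) and *TMEM170B* (0.882). Those most like *SAMHD1* were *ZBED4* (0.905), *SLC37A4* (0.898) and *SKIL* (0.894). Those most like *ADA* were *UBAC1* (0.854), *POMK* (0.838) and *GPR84* (0.83), the last with as few as 1 count in a library.

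Beside the 10 enzymes, 54 other genes of nucleotide metabolism were listed, and 41 of them passed the filter on low counts. None was called in any comparison in edgeR's test with or without the block (0 of 41, against the background shares given above), and the smallest adjusted p with the block was 0.82 at week 12, 0.825 at week 18 and 1 between them. At an unadjusted p under 0.05 with the block, 1 was lower and 1 higher at week 12, and 1 was lower at week 18. Between the later time points, 2 were lower and 2 higher. Of all features, 4.69%, 5.85% and 2.17% reached it in either direction in these comparisons. At week 12, 25 of the 41 had a log2 fold change above 0 (median 0.027), and at week 18, 29 of 41 (median 0.041). Between week 18 and week 12, 28 of 41 did (median 0.046). The other 16, 12 and 13 lay below 0, where 49%, 49.8% and 51.1% of all features did. Of the 3 measured genes of deoxynucleotide synthesis (*RRM1*, *RRM2* and *TYMS*), 2 lay above 0 at week 12 and none at week 18, where their median was −0.17.

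The gene of this wider set with the smallest unadjusted p with the block was *DPYD*, which encodes the first enzyme of uracil and thymine breakdown. In the order of the time points its CPM was 19.6, 20.2 and 29.8 in Z15228, 31.0, 20.8 and 46.3 in Z13076, 18.0, 16.9 and 23.7 in Z15339, 28.4, 17.7 and 20.9 in Z15303, and 51.6, 27.5 and 35.1 in Z15408. From week 12 to week 18 it was higher in 5 of 5 animals, where 2.99% of all features were. That log2 fold change was 0.58 with the block (SE 0.175, unadjusted p = 0.00399, edgeR adjusted p = 1). At week 12 against pre-treatment it was −0.47 with the block (SE 0.175, edgeR adjusted p = 0.82), with lower values in 4 of 5 animals.

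*ADAL*, whose product resembles adenosine deaminase and acts on adenosine monophosphate analogues, was higher at week 12 in 5 of 5 animals, where 2.23% of all features were. Its mean went from 10.9 ± 1.22 to 14.4 ± 4.15 CPM and back to 11.2 ± 2.74 at week 18 (SD, n = 5). The log2 fold change with the block was 0.36 at week 12 (SE 0.14, edgeR adjusted p = 0.852) and −0.35 from week 12 to week 18 (SE 0.141, edgeR adjusted p = 1), when it was lower in 5 of 5 animals (2.87% of all features were). The largest single value was 21.2 CPM in Z15303 at week 12, and without that animal the week 12 value was 0.27.

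*CMPK2*, an interferon-induced mitochondrial kinase, had 25.0 CPM before treatment in Z15303 and 4.89 to 8.13 in the other 4 animals. At week 18 it ranged from 2.46 CPM in Z15339 to 8.42 in Z13076. Its log2 fold change at week 18 was −0.82 with the block (SE 0.359, edgeR adjusted p = 0.825) and −0.28 without Z15303. *DERA*, the aldolase that cleaves deoxyribose phosphate, went from 29.6 ± 6.14 CPM at week 12 to 38.6 ± 9.06 at week 18 (SD, n = 5), with a log2 fold change of 0.38 with the block (SE 0.154, edgeR adjusted p = 1). The remaining genes named by the same rule were *ITPA*, which clears inosine triphosphate, with −0.20 at week 12, and *UPP1*, a uridine phosphorylase, and *NT5M*, a mitochondrial nucleotidase, with 0.19 and 0.35 at week 18, all with the block (edgeR adjusted p of 0.982, 0.864 and 0.899). Without Z13076 the value of *ITPA* was −0.11, and that of *NT5M* was 0.16 without Z15303 and 0.66 without Z15228.

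**Figure D4:**
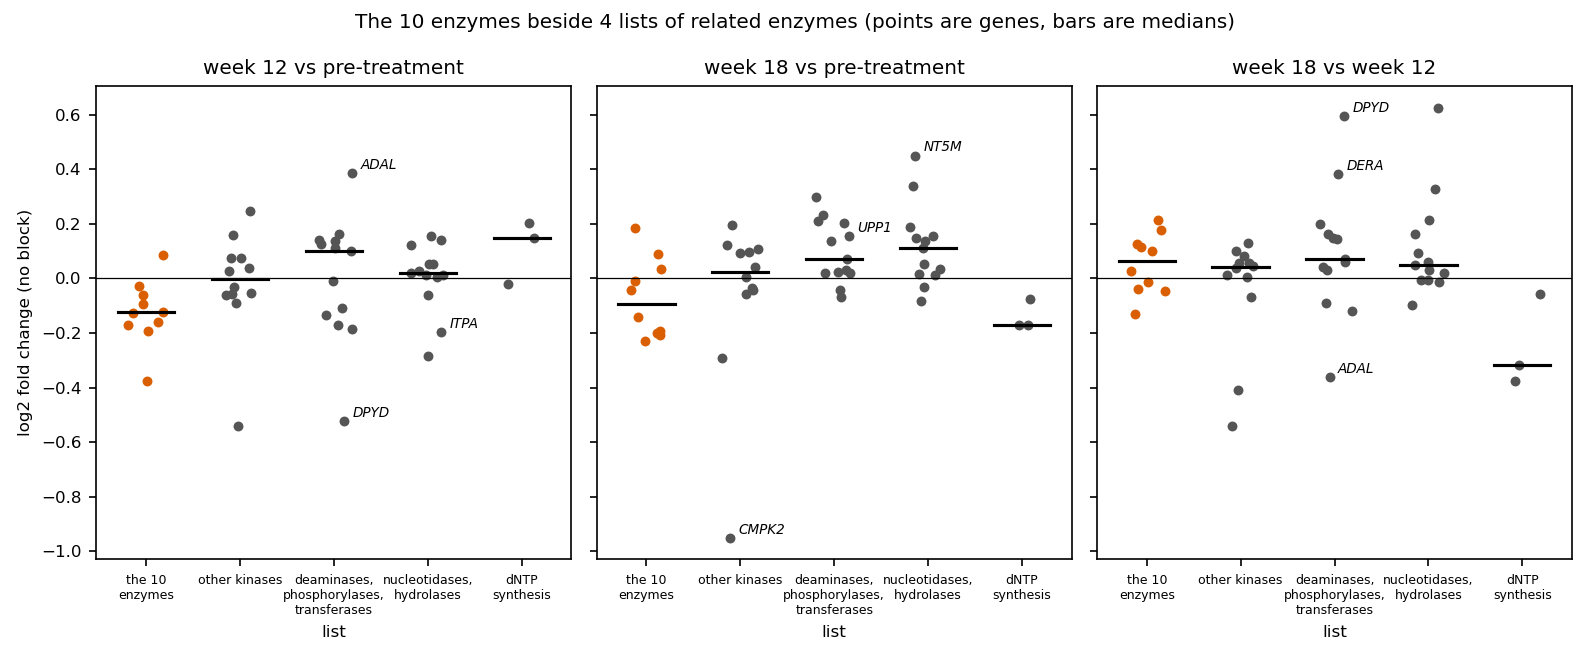
Log2 fold change from edgeR's test with time point alone for the 10 enzymes (orange) beside 4 lists of related genes (grey), with 1 point per gene and the median as a bar, in the 3 comparisons; the named genes are labelled. The 10 enzymes have a median of −0.12 at week 12, and the lowest point of the related lists is *CMPK2* at week 18, at −0.95.

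Markers of the blood cell types were set beside the enzymes, and edgeR called none of them with or without the block. The 8 B-cell markers were all lower at both later time points (median log2 fold changes −0.94 and −1.06), with a summed level of 255 to 1070 CPM before treatment, 145 to 542 at week 12 and 187 to 448 at week 18. The study drew attention to B-cell genes in these same libraries, so this list is not independent evidence of their direction. Apart from the RNA, the study counted CD20 cells by flow cytometry and reported lower absolute counts during and after treatment. The 7 measured monocyte markers were all lower at week 12 (median −0.16; 2210 to 4030 CPM before treatment and 2210 to 3440 at week 12) and 5 of 7 were higher at week 18 (median 0.22; 2500 to 5120 CPM). Of the 8 T-cell markers, 7 were higher at week 12 (median 0.11; 2360 to 3530 CPM before treatment, 2820 to 3860 at week 12 and 2900 to 3230 at week 18). Of 7 cytotoxic lymphocyte markers, 6 were higher at week 12 and 1 at week 18 (3450 to 7680, 4470 to 10100 and 4580 to 7790 CPM). RNA of T cells, B cells and monocytes, the cells that PBMCs hold, was thus present at each time point.

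The other lists covered cells that PBMC preparations can also hold. The 6 platelet markers summed to 3520 to 7200 CPM before treatment, 3010 to 8740 at week 12 and 2850 to 10600 at week 18, and all 6 had a log2 fold change above 0 at both later time points (medians 0.23 and 0.14). The 5 measured granulocyte markers summed to 196 to 407, 208 to 434 and 277 to 609 CPM. The 6 dendritic cell markers summed to 174 to 373, 137 to 273 and 134 to 287 CPM. Of these, 5 of 6 had a log2 fold change below 0 at week 12 and 3 of 6 at week 18. The measured red cell markers summed to 35.2 to 774, 36.9 to 338 and 36.8 to 631 CPM, and the 5 measured markers of dividing cells to 28.6 to 81.3, 38.6 to 69.9 and 27.8 to 65.2 CPM. DESeq2 with the animal as a block called all 8 B-cell markers and the dendritic cell marker *TCF4* at both later time points, each lower than before treatment, and no other listed marker. The log2 fold change of *TCF4* in that fit was −0.58 at week 12 (DESeq2 adjusted p = 0.0331) and −0.61 at week 18 (DESeq2 adjusted p = 0.0149), and the edgeR adjusted p with the block was 0.204 and 0.0972. The study lists *TCF4* among the genes that changed during treatment in these same libraries, so it is not independent evidence on dendritic cells. DESeq2 and limma-voom without the block called none of the markers. No measured marker was without counts in every library, though *ELANE* was at 0 in at least 1 of them, and the part of the cell mixture in the values of the 10 enzymes was not tested.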

How the data were processed

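PBMC RNA of 5 macaques at 3 time points (15 libraries) was amplified with SMART-Seq v4 and made into Nextera XT libraries. The authors aligned reads with STAR 2.7.9a to *M. nemestrina* (Ensembl release 95) and deposited raw read counts per gene; the strand setting is not given in the sources used here. Animals and time points come from the labels. Analysis used R 4.3.3, edgeR 4.0.16 (TMM, filterByExpr with a minimum count of 10, quasi-likelihood F test on all 15 libraries), DESeq2 1.42.0 and limma 3.58.1; the scripts were tested on simulated data. Log2 CPM used a prior count of 2. The main test had time point alone. The animal was added as a block because the numbered replicates are the same animals. Deviations of libraries from their time point means correlated by 0.551 on average within an animal (15 pairs, 0.351 to 0.683). Between different animals at different time points the mean was −0.137 (60 pairs). That value follows largely from centring on the time point means and is not separate evidence. The biological coefficient of variation was 29.3% without the block and 16.9% with it. With time point alone, the p-values rest on the spread between libraries of a time point and ignore the pairing. With the block, they rest on the spread of the changes within these 5 animals. Standard errors are the absolute log2 fold change over the square root of F. Counting errors cover counting alone.

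The 10 enzymes and all gene lists were chosen with earlier results of these data known. The text names all 10; from the other pathway lists, any gene called, else the 3 with the smallest unadjusted p with the block in each comparison; and the 3 genes most correlated with *DCK*, *ADA* and *SAMHD1*. *DCK* ratios and time by date group were chosen after values were seen. Alternatives were other tools, scalings and filters, each animal left out, and the animals with shared dates. Levels are not compared between genes, since no gene lengths of this build were used. Of the 54 pathway genes, 8 were not analysed here, 3 had low counts and 2 (*GDA* and *XDH*) had none.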

Additional observations from a re-analysis of the deposited data

Results flagged for a closer look

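For 7 values of the 10 enzymes, all 3 animals with shared dates moved one way and both other animals the opposite way. Each is given as the log2 change in the animals with shared dates minus that in the other 2, from edgeR's fit with a block for the animal. At week 12 against pre-treatment the difference was −0.52 for *NT5C2* (standard error, SE, 0.175, edgeR adjusted p = 0.121) and −0.56 for *SAMHD1* (SE 0.187, adjusted p = 0.121). At week 18 against pre-treatment it was −0.76 for *NT5C2* (SE 0.175, edgeR adjusted p = 0.0903), −0.50 for *SAMHD1* (0.187, adjusted p = 0.201), −0.45 for *CMPK1* (0.191, adjusted p = 0.25) and −0.44 for *PNP* (0.286, adjusted p = 0.462). Between week 18 and week 12 it was −0.63 for *DCK* (SE 0.26, edgeR adjusted p = 0.965), where 1 of the 10 enzymes split in this way against 5.56% of all features. Such splits were seen for 2 of the 10 enzymes at week 12, against 16.5% of all features. At week 18 they were seen for 4 of the 10, against 16.3% of all features. None of the 7 differences passed the adjustment over all features. The dates, the animals and anything else the 3 had in common cannot be told apart with 3 animals against 2. The labels do not say whether they were handled together.

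None of the 30 sets of 5 animals (each enzyme at each time point) held a single animal that lay beyond Dixon's critical value of 0.71.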

How the results depend on the processing

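No enzyme was called under any alternative, the block included. The number of features called, 0 in edgeR's test with time point alone, was 1 with the animal as a replicate block at week 12 and 1 at week 18, and 1 at week 12 in DESeq2 without a block. DESeq2 with the animal as a block called 27 at week 12, 51 at week 18 and 8 between them. In edgeR with the block, leaving out each animal gave 0 to 6 features at week 12 and 0 to 17 at week 18, the highest without Z13076 both times, and the animals with shared dates alone gave 7 and 7. The cause of these differences was not tested.

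Of the 240 values of the 10 enzymes under other tools, scalings, filters and the block, 237 kept their sign; the 3 others were *ADK* at week 18 (−0.0081), which was 0.0094 in edgeR with the block, 0.014 in DESeq2 with the block and 0.0022 without a filter. With the animals with shared dates alone, 5 of 30 values turned: *ADA* at week 12 (0.047), *TK2* at week 18 (−0.015), *ADK* at week 18 (−0.13), and *DCK* (−0.077) and *ADK* (−0.065) between week 18 and week 12.

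Leaving out each animal turned the sign of 17 of 150 values without the block and 15 of 150 with it. Without the block the ranges were, at week 12, −0.0048 to 0.14 for *DGUOK*, −0.19 to 0.0011 for *TK2*, −0.13 to 0.030 for *CMPK1* and −0.20 to 0.091 for *ADA*. At week 18 they were −0.092 to 0.073 for *ADK*, −0.11 to 0.045 for *CMPK1* and −0.016 to 0.11 for *HPRT1*. Between week 18 and week 12 they were −0.090 to 0.027 for *CMPK1*, −0.11 to 0.025 for *PNP* and −0.099 to 0.0081 for *NT5C2*. With the block the ranges at week 12 were −0.00025 to 0.13 for *DGUOK*, −0.13 to 0.022 for *CMPK1* and −0.15 to 0.095 for *ADA*. At week 18 they were −0.087 to 0.080 for *ADK*, −0.11 to 0.048 for *CMPK1* and −0.010 to 0.11 for *HPRT1*. Between the later time points they were −0.089 to 0.036 for *CMPK1*, −0.12 to 0.032 for *PNP* and −0.11 to 0.012 for *NT5C2*.

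Counting error reached 11.7% (*PNP* at its lowest count). The unadjusted 95% intervals of the 10 enzymes at week 12 with the block reached down to −38.5% (*DCK*) and up to 24.3% (*DGUOK*), so changes within those bounds cannot be set aside. The median log2 fold change of all features lay within −0.0191 to 0.00933 under the 3 scalings tried.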

Other observations

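The ratio of raw counts within a library does not depend on the scaling between libraries. For every 100 reads of *DGUOK*, the libraries held 32.0 reads of *DCK* before treatment and 26.6 at week 12 in Z15228, 34.8 and 27.7 in Z13076, 46.6 and 45.7 in Z15339, 45.0 and 22.3 in Z15303, and 68.5 and 42.7 in Z15408. The ratio was lower at week 12 in 5 of 5 animals. At week 18 it was 27.4, 53.3, 36.9, 22.4 and 34.5 in the same order, lower than before treatment in 4 of 5, with Z13076 above. Against 100 reads of *TK2*, *DCK* was lower at week 12 in 4 animals and went from 29.1 to 31.6 in Z15408. A ratio shows unequal change of the 2 genes and not which of them changed. These ratios were chosen after the values were seen and were not tested.

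*NT5M*, which encodes a mitochondrial deoxyribonucleotidase, stood apart by animal rather than by time. Z15408 had 1, 3 and 7 counts at pre-treatment, week 12 and week 18, or 0.114, 0.301 and 0.775 CPM, while the other 12 libraries held 78 to 274 counts. The cause was not tested.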
